A study of Mus musculus with 12 samples.

Results

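NELFA, a subunit of the negative elongation factor NELF, was mapped by ChIP-seq in mouse embryonic stem cells (mESCs), and the peaks described are those of its list that shared at least 1 bp with a peak of RNA polymerase II phosphorylated at serine 5 (RNAPII Ser5p) and at least 1 bp with a peak of Ctr9, a core subunit of the Paf1 complex (Paf1C). These were 788 of the 1980 NELFA peaks. Of the other 1192 NELFA peaks, 499 overlapped Ser5p only, 66 overlapped Ctr9 only and 627 overlapped neither. The series held 12 samples of E14 mESCs and NIH3T3 embryonic fibroblasts, all grown in a medium with serum and LIF, and 9 of them had a processed file used here. NELFA came from mESCs expressing a LAP (GFP) tagged NELFA, and Ctr9 from cells with GFP knocked in at the end of the Ctr9 gene in each cell type, sorted as a pool of GFP-positive cells, and both proteins were precipitated with the same anti-GFP antibody. Ser5p was mapped in the NELFA-tagged mESCs, and Ser2p and H3K27ac were mapped with their own antibodies in mESCs, H3K27ac also in NIH3T3 cells. RNA-seq was made from mESCs and NIH3T3 cells. Each experiment was a single library, so no difference could be compared with a spread between replicates, and the 95% intervals below cover counting error over peaks or genes only. Peaks close to each other share reads and a gene, and are not independent.

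During transcription, NELF holds RNAPII shortly after it leaves the transcription start site (TSS). The carboxy-terminal domain of RNAPII is phosphorylated at serine 5 at initiation and at serine 2 as the polymerase elongates, and Paf1C travels with elongating polymerase. H3K27ac is a histone mark of active promoters and enhancers. A place with NELFA, Ser5p and Ctr9 peaks therefore carries a pausing factor, early polymerase and an elongation factor, each mapped in a population of cells, with Ctr9 in another line than NELFA and Ser5p, and not necessarily on the same molecule.

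Sequences are given in the order of their NELFA fold enrichment, first at the promoters of Hist1h1a and Polr2a and then at other sites. They come from the mouse genome GRCm38.p6 (mm10) and read 5′ to 3′ on the strand of the gene. Capitals mark any of the 10 motifs listed further below, on either strand. At the protein-coding starts, the base at which the gene begins is number 0, and the stretch shown runs from -150 to 29. The first is the promoter of the linker histone gene Hist1h1a (chr13:23763516-23763695, + strand), which had the highest NELFA fold enrichment of all 788 peaks and held TATAAA at -31 and CCAAT further upstream.

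Hist1h1a: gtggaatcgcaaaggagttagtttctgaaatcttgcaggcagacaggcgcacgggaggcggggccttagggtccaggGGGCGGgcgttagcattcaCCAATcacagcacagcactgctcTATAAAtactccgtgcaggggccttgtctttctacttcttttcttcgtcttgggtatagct

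The second, Polr2a (chr11:69758608-69758787, - strand), encodes the largest subunit of RNAPII. With histone genes and peaks at genes of small nuclear RNAs set aside, it had the highest fold at a protein-coding start. It held TATAAA at -29 and GGGCGG motifs.

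Polr2a: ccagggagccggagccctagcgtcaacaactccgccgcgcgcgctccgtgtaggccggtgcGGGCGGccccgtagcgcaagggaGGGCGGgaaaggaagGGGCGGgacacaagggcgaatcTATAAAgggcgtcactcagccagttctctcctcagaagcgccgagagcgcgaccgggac

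Apart from histone genes and Polr2a, the strongest peaks lay at genes of small nuclear RNAs (snRNAs), the RNA parts of the spliceosome. In a window of 300 bases centred on the NELFA summit, the U5 gene LOC115487699 (chr1:171502576-171502875, - strand, also upstream of the protein-coding gene Alyref2) and the U5 gene Gm25099 (chr4:117190005-117190304, + strand) show bases 288 to 587 and 63 to 362 counted from the start of the RNA gene, and hold no GGGCGG.

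LOC115487699: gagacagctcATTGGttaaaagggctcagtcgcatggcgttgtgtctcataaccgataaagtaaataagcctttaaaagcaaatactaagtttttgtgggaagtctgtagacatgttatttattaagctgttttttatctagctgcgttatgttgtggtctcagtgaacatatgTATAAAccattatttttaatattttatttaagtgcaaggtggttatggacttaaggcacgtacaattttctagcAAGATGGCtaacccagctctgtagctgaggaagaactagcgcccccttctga

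Gm25099: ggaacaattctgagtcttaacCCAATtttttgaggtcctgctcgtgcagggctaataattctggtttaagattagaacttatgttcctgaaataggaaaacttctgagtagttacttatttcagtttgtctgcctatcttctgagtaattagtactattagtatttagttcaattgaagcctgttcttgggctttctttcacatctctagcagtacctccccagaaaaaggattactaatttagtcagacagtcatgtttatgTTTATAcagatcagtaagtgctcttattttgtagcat

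The windows of Polr2a and Pou5f1 were chosen after their values were seen. The last lies upstream of Pou5f1, which encodes the pluripotency factor OCT4 (chr17:35503574-35503873, + strand, NELFA summit at -2294 from the start), and holds none of the 10 motifs.

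Pou5f1: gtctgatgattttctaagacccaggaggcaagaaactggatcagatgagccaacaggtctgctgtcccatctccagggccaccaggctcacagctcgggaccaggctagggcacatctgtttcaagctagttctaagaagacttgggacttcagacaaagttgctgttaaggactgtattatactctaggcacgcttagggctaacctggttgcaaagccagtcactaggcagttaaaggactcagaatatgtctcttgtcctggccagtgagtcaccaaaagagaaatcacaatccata

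By the values that chose them, the 788 peaks had a median NELFA fold enrichment of 5.40 (95% interval 5.21 to 5.63) and ranged from 2.65 to 30.5. Fold enrichment here is the pileup at the summit over the local background as macs2 gives it. The strongest overlapping Ser5p peak had a median fold of 7.76 and the strongest overlapping Ctr9 peak one of 8.33. Across the peaks, the NELFA fold moved with the Ser5p fold (Spearman's rho 0.436, n = 788) more than with the Ctr9 fold (rho 0.0729), while the Ser5p and Ctr9 folds gave a rho of 0.543. These points share libraries and neighbouring genes, and without histone and snRNA genes the values were 0.332, 0.0536 and 0.587 (n = 737). NELFA peaks with both were wider than the others, with median widths of 382 and 295.5 bps, and a wide peak meets other peaks more easily. They met 739 of the 4490 Ser5p peaks but 749 of the 44748 Ctr9 peaks, and 196 of them (24.9%) lay on a Ctr9 peak wider than 5 kb. At the edge of the rule, the peak at Ldha shared 1 bp with a Ctr9 peak, that at G3bp1 3 bps and that at Eef1b2 4 bps. Just outside it, the Fam53c peak missed a Ctr9 peak by 1 bp, the Sptan1 peak by 2 bps and the 2510002D24Rik peak by 4 bps, with NELFA folds of 13.9, 6.75 and 4.14.

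The 10 highest NELFA folds belonged to histone genes, snRNA genes and Polr2a. Hist1h1a reached 30.5, with 28.2 for Ser5p and 31.3 for Ctr9. Hist1h4i reached a NELFA fold of 26.9, Hist1h3h 25.7, and Hist1h4d and Hist1h3f 23.5 each, all core histone genes of the same cluster. The U5 gene beside Alyref2 reached 28.2, the U1 gene Gm22068 26.2, the U2 gene LOC115487916 24.8 and the U5 gene Gm25099 23.2. Polr2a stood among them with a NELFA fold of 27.5, 12.9 for Ser5p and 9.59 for Ctr9. The snRNA genes and the histone genes thus had similar NELFA and Ser5p folds but different Ctr9 folds. The median NELFA fold was 18.2 at 22 snRNA peaks and 15.4 at 29 histone peaks, and the median Ser5p fold 22.1 and 18.4. The median Ctr9 fold was 4.02 at snRNA genes and 22.6 at histone genes. At the 22 snRNA peaks, Ctr9 ranged from 2.49 to 9.52, below the lowest of the 29 histone peaks (10.8).

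**Figure D1:**
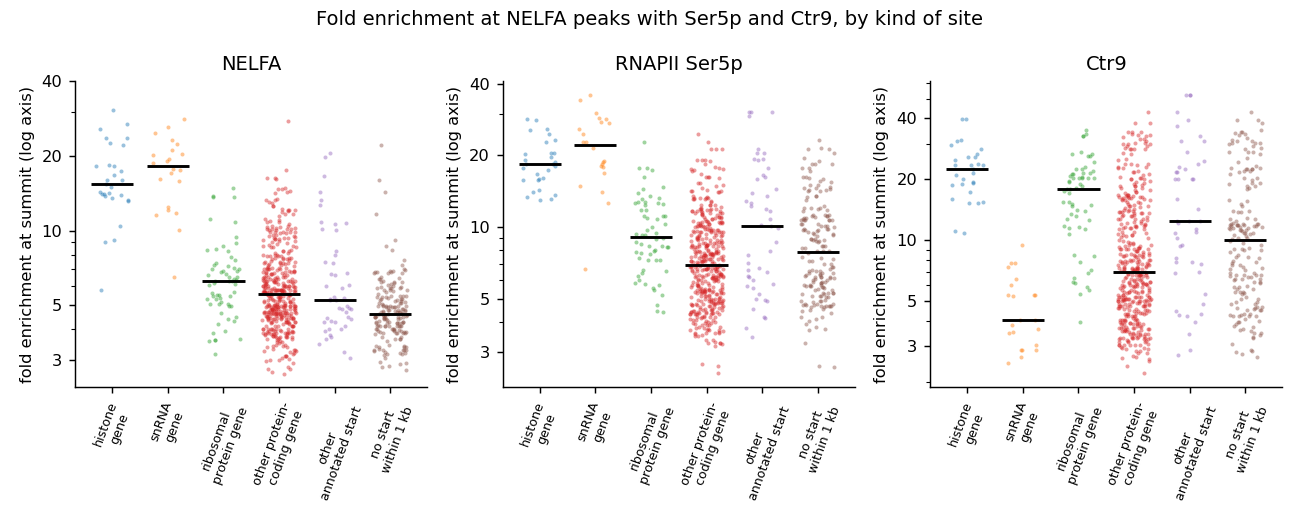
Fold enrichment at the summit (log axis) of NELFA, Ser5p and Ctr9 for each of the 788 NELFA peaks with Ser5p and Ctr9, 1 point per peak, grouped by the kind of site, with black lines at the medians. Histone and snRNA genes sit above the other kinds for NELFA and Ser5p, whereas for Ctr9 the snRNA genes have the lowest median (4.02) and the histone genes the highest (22.6).

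Most of the 788 summits lay near gene starts, but less often than those of the other NELFA peaks. Of the 788, 541 (68.7%, interval 65.3 to 71.9) were within 1 kb of a protein-coding TSS, against 1105 of 1192 others (92.7%) and 83.1% of all NELFA peaks. By kind of site, 29 lay at histone genes, 22 within 500 bps of an snRNA gene start, 62 at ribosomal protein genes of the list used, 443 at other protein-coding genes and 48 at starts of genes of other types. The list does not hold Rpl36a, whose peak of NELFA fold 9.85 is therefore counted among the 443. Some of the 22 snRNA peaks were also within 1 kb of a protein-coding TSS, and so are counted in the 541 as well. The remaining 184 (23.4%) had no annotated start within 1 kb, against 60 (5.03%) of the other NELFA peaks. By position, 32 summits lay within 1 kb of the end of a protein-coding gene, 50 in an intron, 5 in an exon and 160 between protein-coding genes. Histone genes made up 3.68% of these peaks, but 1 peak of the other 1192, and ribosomal protein genes 7.87% against 0.587%. Of the 788, 233 (29.6%) had another such peak within 10 kb, and 28 of the 29 histone peaks lay in the cluster at chr13:21715381-23934031.

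Ser2p peaks, which the choice did not use but which lay almost wholly on Ctr9, overlapped these peaks far more often than other NELFA peaks. The H3K27ac shares differed by less than their interval. A Ser2p peak overlapped 192 of 788 (24.4%, interval 21.4 to 27.5), beside 10.1% of all NELFA peaks, and 7 of the other 1192 (0.587%), a difference of 23.8 percentage points (20.8 to 26.9). None of the 499 peaks with Ser5p only and none of the 627 with neither had one, which allows shares of up to 0.737% and 0.587%, while 7 of 66 with Ctr9 only did (10.6%, 4.37 to 20.6). With all NELFA peaks split into 3 equal classes of NELFA fold, the share was 31.1%, 22.1% and 21.5% from the lowest to the highest class, against 0.457%, 1.12% and 0% of the others. Most of the others lacked a Ctr9 peak by the rule, so their low share in each class was largely fixed beforehand. The Ser2p list itself lay almost wholly on Ctr9, with 1672 of its 1675 peaks (99.8%) overlapping a Ctr9 peak, so a NELFA peak off Ctr9 could meet few Ser2p peaks. Of the Ser5p peaks with Ctr9 but no NELFA, 774 of 2687 (28.8%, 27.1 to 30.6) had Ser2p, against 199 of 774 (25.7%, 22.7 to 28.9) with NELFA as well.

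H3K27ac overlapped 663 of 788 (84.1%, 81.4 to 86.6) beside 84.1% of all NELFA peaks, and the difference from the other peaks was -0.00724 percentage points (-3.36 to 3.23). Within 1 kb of protein-coding TSSs the share was 90.8% against 85.2% in the others, 5.51 points higher (2.14 to 8.60). In NIH3T3 cells, 483 of the 788 places (61.3%, 57.8 to 64.7) carried a Ctr9 peak, beside 38% of all NELFA peaks, and 22.6% of the others, 38.7 points apart (34.5 to 42.8). Most of the others lacked a Ctr9 peak in mESCs by the rule, so this contrast is not independent of the choice. Of the 66 with Ctr9 only, 31 (47.0%) had NIH3T3 Ctr9. NIH3T3 H3K27ac covered 576 (73.1%), beside 83.3% of all NELFA peaks, and 90.0% of the others, -16.9 points apart (-20.5 to -13.4). Near protein-coding TSSs this difference was -3.08 points (-6.01 to -0.493), and of the 184 peaks with no start within 1 kb, 34 (18.5%) had NIH3T3 H3K27ac. The other NELFA peaks without a start had a like share, 12 of 60 (20%), -1.52 points apart (-14.3 to 8.76). H3K27ac in mESCs lay on 66.3% of the 184 and 65% of the 60, 1.30 points apart (-11.6 to 15.5).

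**Figure D2:**
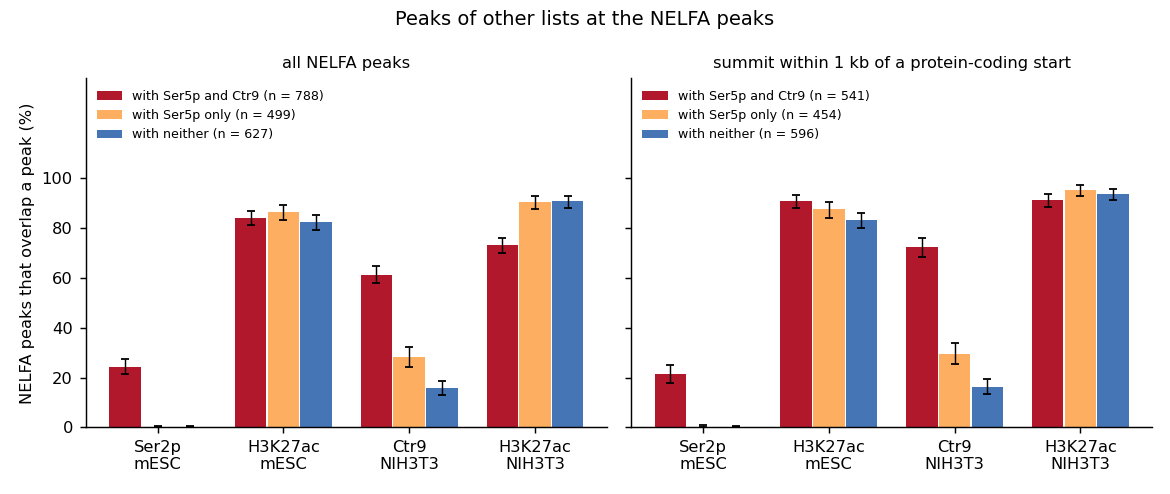
Share of NELFA peaks (y axis, percent) that overlap a peak of each other list, for the peaks with Ser5p and Ctr9, with Ser5p only and with neither, over all NELFA peaks (left) and for summits within 1 kb of a protein-coding start (right), with exact 95% intervals as bars. Of these 3 classes, the first has Ser2p peaks (24.4%) and the others, which lack Ctr9 by definition, have none, while 99.8% of Ser2p peaks lie on Ctr9; the class with Ctr9 only (66 peaks, 10.6% with Ser2p) is not drawn. H3K27ac in mESCs is alike in all 3 classes on the left.

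The kinds of site differed in what else they carried. Ser2p overlapped 24 of 29 histone peaks (82.8%, 64.2 to 94.2), 5 of 22 snRNA peaks (22.7%), 3 of 62 ribosomal protein peaks (4.84%, 1.01 to 13.5) and 87 of 443 other protein-coding starts (19.6%, 16 to 23.6). The NELFA peaks of these kinds had median widths of 1447, 1019, 398 and 379 bps in the same order. A wide peak meets other peaks more easily, and the shares were not adjusted for width. All 62 ribosomal protein peaks and all 22 snRNA peaks had H3K27ac in mESCs, and all 62 had it in NIH3T3 cells too. The ribosomal protein peaks had NIH3T3 Ctr9 in 60 of 62 cases (96.8%). The histone peaks had Ctr9 in NIH3T3 cells in 25 of 29 cases.

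**Figure D3:**
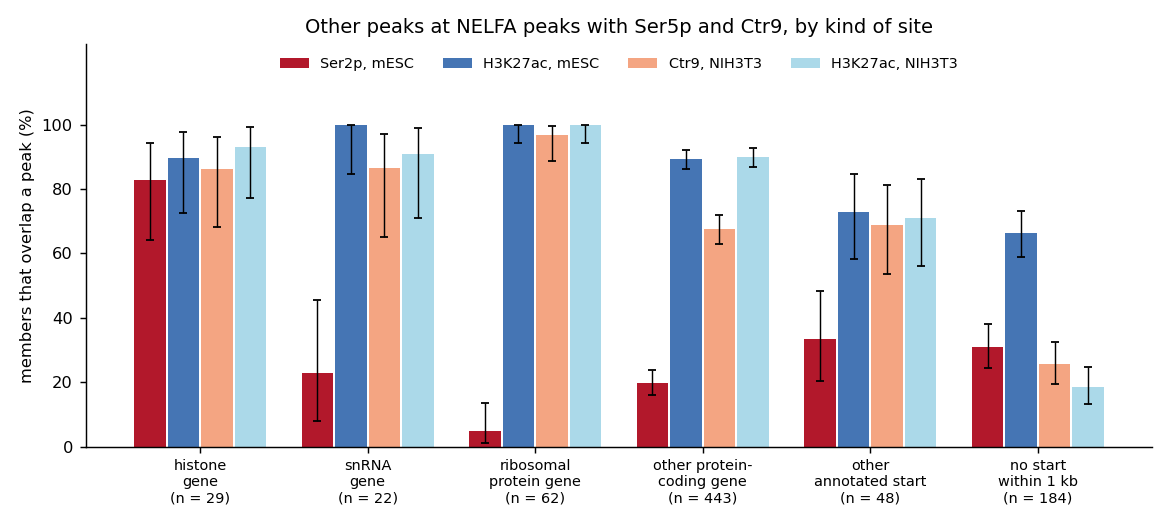
Share of the 788 peaks (y axis, percent) that overlap a Ser2p or H3K27ac peak in mESCs, or a Ctr9 or H3K27ac peak in NIH3T3 cells, by kind of site, with exact 95% intervals. Histone genes have the highest Ser2p share (82.8%), ribosomal protein genes the lowest (4.84%), and the sites with no start within 1 kb the lowest NIH3T3 H3K27ac share (18.5%). Histone genes also have the widest NELFA peaks (median 1447 bps), and the shares are not adjusted for width.

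The order of the summits depended on the kind of gene. Over the 541 peaks at protein-coding TSSs, the NELFA summit lay at a median of 7 bps past the start (2 to 12), the Ser5p summit at 19 bps (12 to 29) and the Ctr9 summit at 294 bps (226 to 372), and the Ctr9 summit was downstream of NELFA in 378 of 541 (69.9%, 65.8 to 73.7). NELFA and Ser5p summits were 59 bps apart at the median over the 788 peaks (52 to 66) and NELFA and Ctr9 summits 437 bps (399 to 473). The Ser5p peak held the NELFA summit in 99% of cases, and the Ctr9 peak in 72.2%. At the 62 ribosomal protein genes, NELFA stood at 3 bps, Ser5p at 29.5 bps and Ctr9 at 3209.5 bps (2451 to 3872). At histone genes NELFA stood at 135 bps, Ser5p at 167 bps and Ctr9 at 524 bps, with Ser2p at 525.5 bps in the 24 peaks that had it. Replication-dependent histone genes are short and have no introns. At snRNA genes the order was turned for Ser5p, whose summit was downstream of NELFA in 1 of 22 cases. The NELFA summit lay at a median of 192.5 bps past the start of the RNA gene (165 to 213), Ser5p at 112.5 bps and H3K27ac at -128.5 bps, and the quartiles for NELFA were 166.5 and 212 bps.

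**Figure D4:**
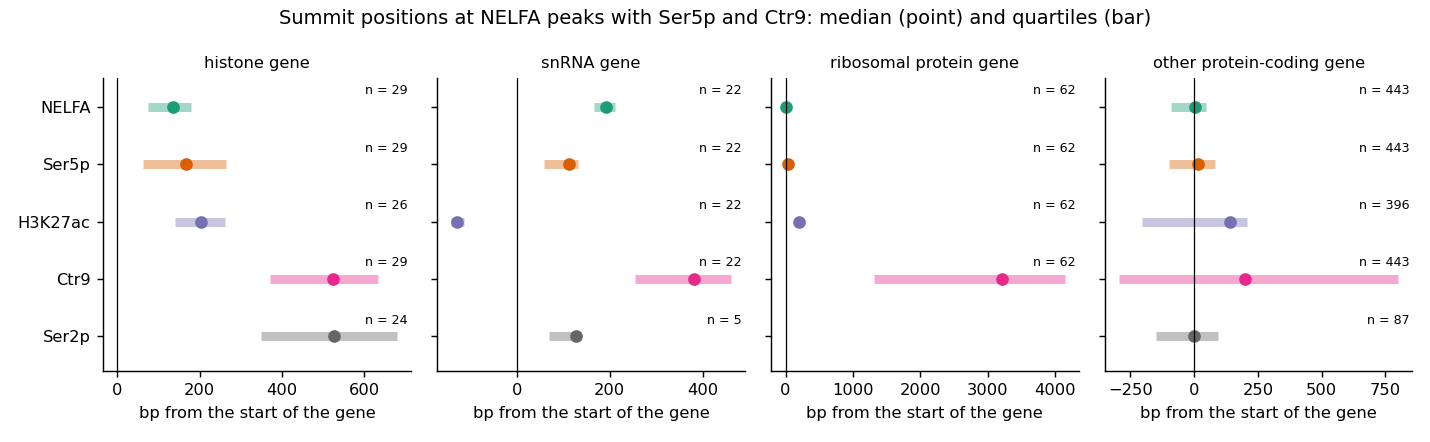
Distance of NELFA, Ser5p, H3K27ac, Ctr9 and Ser2p summits from the start of the gene (x axis, bps, positive downstream) at the peaks of 4 kinds of gene, as medians (points) and quartiles (bars), with n the number of peaks that have a summit of that list; Ser2p at the 3 ribosomal protein peaks is not drawn. NELFA sits at 3 to 4 bps for ribosomal protein and other protein-coding genes, at 135 bps for histone genes and at 192.5 bps for snRNA genes.

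RefSeq lists 997 snRNA genes for this build, of which 21 (2.11%) had such a peak within 500 bps, with 22 peaks in all since Rnu3a had 2. They were 8 of 33 U2 genes, 4 of 11 U5 genes, 3 of 5 U3 genes, 2 of 123 U1 genes, and a gene each of U4, U7, U11 and U12; U3 is listed with the snRNAs but guides ribosomal RNA processing. None of the 728 U6 genes, which RNA polymerase III transcribes, had one or any other NELFA peak. A further 13 NELFA peaks at snRNA genes had Ser5p but no Ctr9 peak. At the U2 gene Gm24497, the NELFA fold was 22.4, Ser5p 28.5, Ctr9 7.40, H3K27ac 15.6 and Ser2p 4.6. At Rnu5g the NELFA fold was 21.0 and Ser5p 28.6, Ctr9 was 2.88 and no Ser2p peak overlapped. At Rnu7, the U7 gene whose RNA takes part in histone mRNA processing, they were 15.8, 14.1 and 5.38. Many snRNA and histone genes have near-identical copies, and bowtie2 by default reports a read that matches several copies at a single best or randomly chosen place, so the height at any 1 copy is uncertain.

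Long noncoding and small RNA hosts led the 48 peaks at other annotated starts, of which 22 were lincRNAs. Malat1 had a NELFA fold of 20.6, Ser5p 20.4, Ctr9 30.9 and Ser2p 5.58. Neat1, its neighbour, had 16.6, 29.2, 27.4 and 6.41. Lncenc1, a noncoding RNA of naive mESCs, had a NELFA fold of 10.0 and a Ctr9 fold of 39.4, and no Ctr9 peak in NIH3T3 cells. The miR-290 cluster, which makes abundant microRNAs of mESCs, held the highest Ctr9 fold of all. Its 3 peaks had NELFA folds of 10.8, 3.78 and 7.43 at chr7:3217725-3218216, chr7:3219517-3219785 and chr7:3221083-3222609, and shared a Ser5p peak of 30.4 and a Ctr9 peak of 52.3. A Ser2p peak of 27.6, the highest of the 788, lay on the last 2 of them, and none of the 3 had a Ctr9 or H3K27ac peak in NIH3T3 cells. Next by Ctr9 fold came a peak between genes, -159993 bps from Trp63, with a Ctr9 fold of 43.2, NELFA 6.02 and Ser2p 15.4, and a peak 1574 bps past the start of Ftl1, with 43, 7.96 and 21.1. The highest Ser5p folds were those of the U1 gene Gm22068 (35.9) and the U2 gene LOC115487916 (34.1). The peak at the start of Dnajb14, a chaperone gene, had a Ser2p fold of 21.7 with NELFA at 5.79. The gene itself had 5.22 TPM in mESCs (TPM, a transcript abundance, is explained below). Whether this Ser2p peak belongs to Dnajb14 or to a neighbouring gene was not tested.

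The 184 peaks with no annotated start within 1 kb fell into places near gene ends and places elsewhere. The highest NELFA folds among the 184 were 22.2 near the linker histone gene Hist1h1d, 16 near Gtf2a1, which encodes a general transcription factor subunit, and 14.3 near Hist1h4d. A gene end was here counted more widely than above, from 1 kb before to 5 kb past it, a window chosen after the values had been seen, and 46 of the 184 lay there. Ser2p overlapped 33 of these 46 (71.7%, 56.5 to 84.0) and 24 of the other 138 (17.4%, 11.5 to 24.8). H3K27ac went the other way, at 20 of 46 (43.5%, 28.9 to 58.9) and 102 of 138 (73.9%, 65.8 to 81.0). Eef1a1, the translation elongation factor, had a NELFA peak of fold 11.8 at its start and another of 5.47 past its end, with Ctr9 at 30.0 and Ser2p at 13.8 there. Gapdh had 7.73 and 4.92, with Ser2p at 15 on the end peak only. Ptma, Hsp90ab1 and Rpl3 likewise had a peak beyond the gene, with NELFA folds of 4.80, 3.88 and 6.37 and Ser2p folds of 16.9, 14.6 and 23.4. Of 48 genes with a peak at the end, 21 also had one at the start.

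Over all 184, the nearest protein-coding TSS lay at a median of 10550.5 bps (8881 to 13909), and 54 summits were in an exon or intron of a protein-coding gene or within 1 kb of its end. The 151 distinct nearest genes had a median of 43.4 TPM (30.3 to 58.6; TPM is a transcript abundance scaled for length and for the library's total) in mESCs and 13.6 (10.5 to 21.5) in NIH3T3 cells. Of them, 42 (27.8%, 20.8 to 35.7) were at least 4-fold higher in mESCs on the log2(TPM + 1) scale and 3 (1.99%) at least 4-fold lower, while 5.34% and 4.98% of all protein-coding genes and 11.1% and 0.989% of the top 25% of expressed genes were. The peak upstream of Pou5f1 had a NELFA fold of 4.27, Ser5p 10.7, Ctr9 6.72 and H3K27ac 2.83, without Ser2p or any NIH3T3 peak. A peak near Klf4, 53982 bps past its start, had 5.09, 7.94, 7.19 and 2.91. A peak in an intron of Tet2 had NELFA 4.34, Ser5p 3.73 and Ctr9 9.18. Near Zfp42, 2 peaks at 16228 and 17080 bps past the start lay on a Ctr9 peak of 30.1 with Ser2p at 11.7. Nearness does not show which gene a place belongs to.

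The protein-coding genes with such a peak at the start were highly expressed. They were 518 of 21918 genes (2.36%) and 9.42% of the top 25% of expressed genes, with a median of 69.6 TPM (56.7 to 82.1) in mESCs against 26.3 (24.3 to 28.8) for genes of the other NELFA peaks and 1.25 for all protein-coding genes, each gene taken at its highest transcript. With the transcripts of a gene summed, the medians were 112 (91.0 to 136), 43.6 (39.9 to 47.4) and 1.72 TPM. Of the 518, 381 (73.6%, 69.5 to 77.3) belonged to the top 25% of expressed genes, beside 18.4% of all genes, and 604 of 1074 (56.2%) of the other NELFA genes, 17.3 points apart (12.4 to 22). The highest were Eef1a1 at 10124 TPM, Tpt1, a growth-related protein, at 6525, Ptma, prothymosin alpha, at 4615, Rps24 at 3972 and Hsp90ab1 at 3921. At the other end, Ddit3, Trim17, Hist1h4c, Hist1h2ba, RPS10-NUDT3 and Exosc6 were listed at 0. Histone genes were low in this RNA-seq (29 genes, median 1.11 TPM) despite their high ChIP folds. Their main mRNAs carry no poly(A) tail. The paper calls the method mRNA sequencing, but the way RNA was selected is not given in the sources used here. Without the histone genes the median was 78.0 TPM (64.9 to 93.3, n = 489). With the peaks at protein-coding starts split by Ctr9 fold into 3 classes of 180, the median TPM was 49.7, 74.1 and 224 from low to high, and Ser2p overlapped 1.67%, 17.8% and 43.9%; Ctr9 chose the peaks, so this is a description.

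Across the 518 genes, a Ser2p peak lay in the gene or up to 5 kb past its end in 339 (65.4%, 61.2 to 69.5), beside 6.76% of all protein-coding genes, and in 140 of 1074 (13%) genes of other NELFA peaks, 52.4 points apart (47.7 to 56.8). Within the top 25% of expressed genes it was 72.4% against 19%, 53.4 points apart (47.7 to 58.6). Ctr9 chose the peaks of the 518 genes, most other NELFA peaks lacked it by the rule, and 99.8% of Ser2p peaks lay on Ctr9. Neither difference is therefore independent of the choice. Of the summits of 654 Ser2p peaks overlapping these spans, 377 (57.6%) lay past the gene end, 140 in the rest of the gene, 73 within 1 kb past the start, 39 in its last 1 kb and 25 before the start. The ribosomal protein genes show the shift most clearly: 61 of 62 had Ser2p in the gene or past its end, but 3 of 62 at the NELFA peak.

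Compared with fibroblasts, 72 of the 518 genes (13.9%, 11 to 17.2) were at least 4-fold higher in mESCs, beside 5.34% of all protein-coding genes and 11.1% of the top 25%, and 9 (1.74%) were at least 4-fold lower, beside 4.98% and 0.989%. Among genes of other NELFA peaks 6.33% were higher, 7.57 points fewer (4.41 to 11.1). Hspb1, a small heat shock protein, had 1049 TPM in mESCs, the Nodal co-receptor gene Tdgf1 784, the threonine dehydrogenase gene Tdh 401, Sox2 364 and Zfp42 286, all 5 listed at 0 in NIH3T3 cells. Ftl1, the ferritin light chain, went from 4.35 TPM in mESCs to 1965 in NIH3T3 cells, but has near-identical copies among which kallisto may divide reads. Dnajb4 had 2.3 and 41.7 TPM, H1f0 18.7 and 226, Zfp36l2 33.3 and 252, and the kinase gene Sgk1 82.4 and 612. The cells matched their labels: Pou5f1 had 1402 TPM in mESCs and was listed at 0 in NIH3T3 cells, whereas Col1a1 had 0.203 and 901. All 6 fibroblast markers were between 0 and 5.69 TPM in the mESC library, with Thy1 the highest. Primitive endoderm markers had up to 6.04 TPM there (Sox7) and those of two-cell-like cells up to 0.295 (Tcstv3), and no gene of these 3 marker lists had a NELFA peak at the start.

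**Figure D5:**
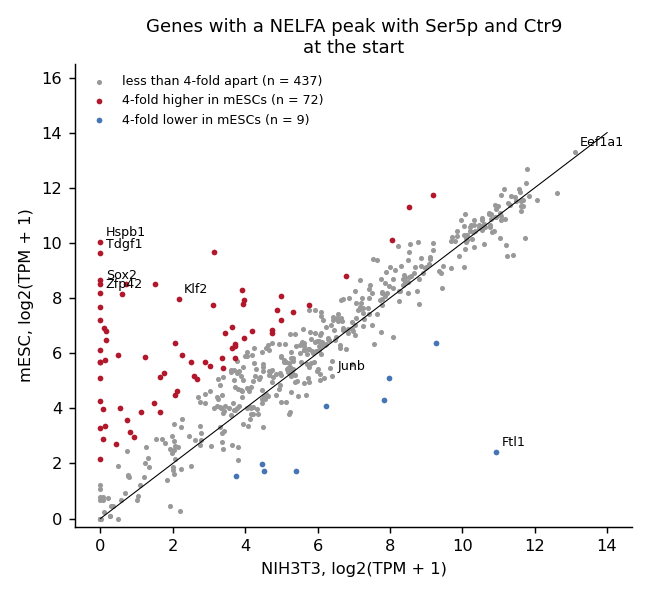
Expression of the 518 genes with a NELFA peak with Ser5p and Ctr9 at the start, as log2(TPM + 1) in NIH3T3 cells (x axis) and mESCs (y axis), 1 point per gene and 1 library per cell type, with the diagonal as equality. The 72 genes at least 4-fold higher in mESCs stand above the diagonal, Tdgf1, Sox2 and Zfp42 among them, and the 9 at least 4-fold lower below it.

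By gene list, 11 of 30 genes of core and naive pluripotency had such a peak at the start (36.7%, 19.9 to 56.1), beside 2.36% of all genes and 9.42% of the top 25%, to which 27 of the 30 belonged. They were Fgf4, Klf2, Klf5, Lefty1, Nanog, Nodal, Sox2, Tdgf1, Tfcp2l1, Trim28 and Zfp42. All 11 had Ser2p in the gene or past its end, and 10 of them, all but Trim28, were at least 4-fold higher in mESCs. At Sox2 the NELFA fold was 4.85 and Ctr9 18.2, at Nanog 5.79 and 6.06, at Klf2 8.13 and 15.1, at Tdgf1 8.60 and 14.2, and at Zfp42 6.82 and 13.7, so their NELFA folds all lay below the histone median of 15.4. At Sox2, Nanog, Fgf4, Lefty1, Klf2 and Tdgf1 no H3K27ac peak overlapped the NELFA peak in mESCs. Near protein-coding starts, 90.8% of the 541 such peaks and 87.1% of all NELFA peaks had one. H3K27ac beside the NELFA peak was not counted, so these promoters may still carry the mark. The list's members without a peak at the start included Pou5f1, Klf4, Tet2, Gdf3 and Dppa5a, which had one nearest to them elsewhere, and Esrrb, Lin28a and Utf1.

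Of 43 immediate early and stress genes found, 16 had such a peak (37.2%, 23.0 to 53.3), with 21 of the 43 in the top 25%. Junb had a NELFA fold of 10.8 and a Ctr9 fold of 9.10, and Mcl1, an anti-apoptotic gene, 8.96 and 17.8. Egr1 had 4.37 and 19.7. Fos, Jun and Myc had a NELFA peak that lacked Ser5p or Ctr9. Of 23 heat shock and chaperone genes, 7 had a peak (30.4%, 13.2 to 52.9), with 20 of the 23 in the top 25%, among them Hsp90aa1, Hsp90ab1, Hspa8 and Hspb1. Of 34 genes of RNA splicing and binding, 22 had (64.7%, 46.5 to 80.3), with Npm1 at a NELFA fold of 10.4, Ncl at 9.78 and Srsf3 at 9.62, and all 34 were in the top 25%. Of the 78 cytosolic ribosomal proteins listed (without Rpl36a), 62 had (79.5%, 68.8 to 87.8), again with all 78 in the top 25%. Glycolysis gave 5 of 18 (27.8%, 9.69 to 53.5), namely Aldoa, Gapdh, Ldha, Pkm and Slc2a3, with 15 of the 18 in the top 25%. The pausing and elongation machinery gave 4 of 30 (13.3%, 3.76 to 30.7), with 25 of the 30 in the top 25%, an interval that holds the 9.42% of all top 25% genes. The 4 were Polr2a, Cdk12, Supt16 and Hexim1, the inhibitor of P-TEFb, whose NELFA fold was 9.89. Neither the cell cycle list (0 of 20, of which 16 were in the top 25%) nor the lineage regulators (0 of 26, none of which were in the top 25%) had any, which allows shares of up to 16.8% and 13.2%. Among replication-dependent histone genes 29 of 67 had a peak (43.3%), beside 2.36% of all genes, with 3 of the 67 in the top 25%; the list was chosen after its values had been seen. Actb, with a NELFA fold of 13.1 at -7, and Ppia, with 7.59 at 28 bps, each had a further such peak along the gene, at 1269 and 4016 bps, and Pabpc1, the poly(A) binding protein, had 12. Another Actb peak had a NELFA fold of 3.87 and a Ser2p fold of 9.93, with its summit at -36 bps from the nearest annotated transcript start. Positions are counted from the nearest start of any transcript, so this start need not be that of the peak at -7.

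The sequence under the NELFA summits differed little in CpG content at promoters but more in motifs. In windows of 300 bps on the summit, the median ratio of observed to expected CpG was 0.790 (0.767 to 0.815) against 0.881 for other NELFA peaks and 0.589 at all protein-coding starts, and near protein-coding starts 0.895 against 0.894. At the 184 peaks with no start it was 0.279, and at snRNA genes 0.637 with a median GC of 44%. TATAAA, the TATA box sequence, was found in 15.5% of the windows (13.03% to 18.2%). It was in 6.63% of those of other NELFA peaks, 8.85 points apart (6.02 to 11.8), and in 10.7% at all protein-coding starts. Near protein-coding starts it was 13.9% and 5.61%, 8.25 points apart (5.19 to 11.6). When TATAAA was counted only on the strand of the gene and with its first base 40 to 20 bases before the start, 19 of 533 starts had it (3.56%) against 19 of 1097 (1.73%), 1.83 points apart (0.242 to 3.87), and 2.42% of all starts. These 19 held Hist1h1a and Polr2a, shown above, and Srsf2, Junb, Id1, Tfcp2l1 and Ppia. CCGGAAG, an ETS family motif, was less frequent, in 14% of windows against 22.3% of the others and 11.4% of all starts, -8.29 points apart (-11.6 to -4.84). GGGCGG, the GC box, was in 49.1% against 66.2%, 45.5% at all starts and 0 of 22 snRNA windows, -17.1 points apart (-21.4 to -12.6). Near protein-coding starts it was 63.2% against 69.6%, -6.38 points apart (-11.3 to -1.54). AAGATGGC, a YY1 motif, was in 5.84% against 9.49% and 3.52% of all starts. ATTTGCAT, the octamer, was in 14 of 788 windows (1.78%) against 8 of 1191 (0.672%), and 1.27% of all starts. Over all windows the intervals of the difference included 0 for CCAAT (37.9%, with 36.7% in others and 36.6% at all starts), CACGTG (8.50%, 9.91% and 7.44%), the NRF1 motif (1.40%, 2.35% and 1.19%), GAGAGAG (10.3%, 7.81% and 10.4%) and AGGCCT (12.9%, 10.2% and 9.82%). Near protein-coding starts the difference was 2.92 points (0.172 to 5.99) for GAGAGAG and 3.54 (0.278 to 7.10) for AGGCCT, and the interval for AAGATGGC then included 0 (-4.98 to 0.697). Both strands were searched, no motif contains another, and a match is the presence of these letters and not of a factor.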

How the data were processed

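ChIP-seq of NELFA, RNAPII Ser5p, Ctr9, Ser2p and H3K27ac in mESCs and of Ctr9 and H3K27ac in NIH3T3 cells, and RNA-seq of both, were used, with 1 library each. The authors aligned reads to mm10 with bowtie2 2.3.5.1 and called peaks per library with macs2 2.2.6 at a q-value of 0.01. The deposited lists give a score, a fold enrichment (a ratio) at the summit and −log10 p and q values. Transcript abundance was estimated by the authors with kallisto (0.46.1, GENCODE M19); they deposited estimated counts, 26400407 and 28849497 in all for mESCs and NIH3T3 cells, and TPM per transcript. The 3 inputs were not used here. The methods give an intended number of reads per sample, but the peak lists hold no read counts, so the ChIP depth reached is unknown.

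Overlap meant at least 1 bp. The TSS of a peak was the nearest 5′ end of any transcript in GENCODE M21. Sequence and snRNA genes came from RefSeq on GRCm38.p6. A gene's TPM was that of its highest transcript (21918 of 21951 protein-coding genes matched). Expression classes followed the quartiles of genes above 0, with the top 25% starting at 21.7 TPM. Ratios of TPM used a pseudocount of 1. With single libraries no test was made. Shares have exact Clopper-Pearson intervals, medians order-statistic intervals and differences of shares Newcombe intervals, all at 95% and for counting error only. The peaks, gene lists and kinds of site were chosen with earlier results of these data known. Genes named were the members with the highest NELFA, Ser5p, Ctr9 or Ser2p fold, the genes with extreme TPM or ratio, genes of the lists, Actb, Ppia, Pabpc1 and the cases at the edge of the rule; others were chosen after their values were seen. The alternatives were a stricter q, summit and 100 bp overlap, no wide Ctr9 peaks, other TSS windows and gene types, summed TPM, a TPM minimum, another pseudocount, means, another sequence window, a limit of 1 kb past the gene end and averaging within classes of NELFA fold. Analyses used Python 3.11.15, pandas 2.3.3, NumPy 2.4.6, SciPy 1.17.1 and Matplotlib 3.10.9, and 7 of 7 checks on simulated data passed.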

Additional observations from a re-analysis of the deposited data

How the results depend on the processing

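Of 69 values recomputed under an alternative, 49 stayed within the interval of the reported value (for the number of peaks, within 1.5 times), 20 moved and none changed sign. No paired analysis was possible because each measurement was a single library. Requiring the NELFA summit inside both peaks gave 64.5% near a protein-coding TSS, Ser2p at 33.7%, a Ser2p difference of 33.1 points and an H3K27ac difference of -3.40 points. With Ctr9 peaks wider than 5 kb left out, Ser2p was 19.5%, the NELFA to Ctr9 distance 364 bps, Ctr9 downstream in 65.4% and the median 50.9 TPM. A −log10 q of at least 5 gave a NELFA fold of 5.73 and a Ctr9 distance of 478 bps. An overlap of 100 bps gave 78.7% for H3K27ac and 57.2% for NIH3T3 Ctr9. A TSS window of 2 kb gave 72.8% and genes of every type 76.6%. Summed transcripts gave 112 TPM. Means were 6.75 for the NELFA fold, 215 and 1167 bps for the Ser5p and Ctr9 distances and 435 TPM. A limit of 1 kb past the gene gave Ser2p in 58.7% of genes. Leaving out histone and snRNA peaks, an alternative chosen after seeing the data, moved none of the 11 values it was applied to beyond their intervals. The causes of these shifts were not tested. Unknown ChIP depth means that a missing peak is not an absent factor, and the 1675 Ser2p peaks are few beside 44748 Ctr9 peaks.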
